A study of Mus musculus with 12 samples.

Results

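The 40 genes described here encode proteins that condense, align and separate chromosomes in mitosis. They were taken as a named list, matched by symbol to the rows of the 12 expression tables, and all 40 were among the 24421 rows of every table. The list holds 11 functional groups, which run from the proliferation marker Mki67 and topoisomerase Top2a over mitotic cyclins, checkpoint and kinetochore proteins to kinesins, the machinery of sister chromatid release and condensin. The genes are spread over the genome, with 8 on chromosome 2 as the largest number on any chromosome.

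The data are RNA-seq of mouse bone marrow macrophages (BMMs), the precursors of osteoclasts, on the C57BL/6 background. The loss of function experiment compared WT (Mir182+/+LysMcre(+)) with Mir182ΔM/ΔM (Mir182flox/floxLysMcre(+)) BMMs, each at baseline and after 5 days of RANKL, the cytokine that drives osteoclast differentiation. The gain of function experiment compared Control (LysMcre(+)) with Mir182mTg (LSL-Mir182LysMcre(+)) BMMs at baseline only. Each of the 6 conditions had 2 libraries, and BMMs were grown from flushed marrow with M-CSF for 3 days. By their labels all groups, WT and Control included, carried LysMcre, in which the Cre recombinase is driven by the lysozyme M gene of myeloid cells, so deletion or expression of Mir182 was limited to cells in which that promoter is active. The labels do not say whether the libraries of a condition came from separate mice, and p-values measure only the spread between these libraries.

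Cells that divide build a burst of these mRNAs late in the cell cycle. Cyclin B bound to CDK1 starts mitosis, condensin and topoisomerase II compact and untangle the chromosomes, and the kinetochore, built on CENP-A nucleosomes at the centromere, ties each chromatid to spindle microtubules. The spindle assembly checkpoint holds the cell until every kinetochore is attached. The anaphase-promoting complex (APC/C) with CDC20 then destroys securin and cyclin B, and separase cuts the link between sister chromatids. M-CSF drives macrophage precursors to divide, whereas the mature osteoclast is a postmitotic cell formed by fusion. Many of the genes are known targets of the DREAM and MuvB complexes with FOXM1 and B-MYB, which act at a promoter element called the cell cycle genes homology region (CHR) and at CCAAT boxes bound by NF-Y.

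The promoters shared these elements. RefSeq promoter sequences (GRCm38.p6, 250 bases before to 50 after the start) were at hand for 33 of the 40 genes. The CHR letters TTTGAA or TTTAAA, on either strand, stood in 26 of the 33 (78.8%), against 22.3% of 8993 genes tested in the loss of function data and 30.6% of all 27025 genes with a promoter entry. A CCAAT box on either strand stood in 25 of the 33 (75.8%), against 43.0% and 41.1%. Both stood together in 23 (69.7%), against 9.05% and 12.2%. The E2F-type letters TTCGCGC or TTGGCGC were in 5 (15.2%), against 8.40% and 4.47%. These are matches of letters and not measured binding. The 30 bases around the CHR match nearest to the start are shown for the 4 genes with the highest mean level among those that hold it, 5′ to 3′ on the strand of the gene, with the match in capitals; for Top2a and Smc2 the match is on the opposite strand and reads as its reverse complement.
Mki67, minus strand, chr7:135716460-135716489, match 98 bases before the start: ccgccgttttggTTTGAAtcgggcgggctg
Top2a, minus strand, chr11:99024195-99024224, match 23 bases before the start: gctagataaaggTTCAAAtgaaactaggga
Ncapd2, minus strand, chr6:125191692-125191721, match 123 bases before the start: cagccgttgaggTTTGAAcagggaattgcg
Smc2, plus strand, chr4:52439235-52439264, match beginning at base 27 after the start: ctcgcgccgaaaTTCAAAggaacagttccg
Of the genes that come up most below, Bub1b held a CCAAT box 113 bases before and a CHR match 41 bases after its start, Espl1 held both within 44 bases before its start, and Pttg1 had a promoter entry with none of the searched letters in it.

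Sites for miR-182 were rare in the 40 genes. The mature miR-182-5p (chr6:30165962-30165986, minus strand, GRCm38.p6) is shown with its seed, bases 2 to 8, in capitals, followed by the seed matches found in annotated 3′ UTRs, each with 24 bases of context and the match in capitals. A match to bases 2 to 7 followed by A, or to bases 2 to 8, stood in the 3′ UTR of 4 of the 40 genes (10%), against 21.0% of 10900 tested genes and 18.3% of 21020 annotated genes. The longest annotated 3′ UTR of the 40 genes had a median of 556 bases, against 1188 in tested genes, and a shorter UTR has fewer places for a match.
miR-182-5p: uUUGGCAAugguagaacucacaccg
Mad2l1, base 6141 of the longest 3′ UTR: attttaagTTGCCAAcaaatacat
Mad2l1, base 398 of another 3′ UTR: caggaatgTTGCCAAtccggatcc
Kif23, base 347 of the 3′ UTR: tttatataTGCCAAAacaactgaa
Ube2c, base 1161 of the 3′ UTR: atccccagTGCCAAAgggacacag
Prc1, base 701 of the 3′ UTR: tgacctgcTGCCAAAaagagtagc

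Depth was 24951280 to 33050619 reads on genes per library, at which 3 reads make 0.0908 to 0.120 CPM (reads of a gene scaled to a common total per library), and none of the 40 genes fell below 8.02 CPM in any library. The Mir182 gene had 79 and 123 reads in the Mir182mTg libraries and 0 in the Control libraries. In the loss of function libraries it had 0 reads, but for 1 read in a Mir182ΔM/ΔM library at baseline, so it does not check the deletion. Lyz2, the lysozyme M gene that carries the LysMcre insertion, set the WT libraries after RANKL apart. It was at 4117 and 4288 CPM there, at 22.5 to 44.0 CPM in the other 6 loss of function libraries, and at 5783 to 7062 CPM in the gain of function libraries. Every comparison with WT after RANKL rests on those 2 libraries, and whether their LysMcre genotype is the labelled one, and whether they match the other loss of function libraries in other respects, was not tested. TMM scaling factors were 1.107 and 1.095 in them and 0.949 to 0.994 in the other 6. With CPM the median log2 difference of all genes was -0.14 for Mir182ΔM/ΔM against WT after RANKL and 0.19 for RANKL in WT, and with TMM factors -0.0033 and -0.0050, so changes that involve WT after RANKL are given beside these medians. With TMM factors 2439 genes were higher and 2353 lower in Mir182ΔM/ΔM after RANKL, against 1666 and 3609 with CPM, and 3359 rose and 3558 fell with RANKL in WT, against 4738 and 2566.

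The libraries of replicate 1 and replicate 2 differed in a fixed way, and the labels give polyA RNA, TopHat and Cufflinks for the first and total RNA, HISAT2, HTSeq and edgeR for the second, while describing poly-A selection for both. Rn45s, the precursor of ribosomal RNA, had 742 to 1176 CPM in replicate 1 and 9778 to 21273 CPM in replicate 2. Cenpa, the centromeric histone H3 variant, was 1.34 to 1.46 times higher in replicate 2 in each of the 6 conditions, and Mki67 was 0.742 to 0.840 times as high. In all 6 conditions 19 of the genes were lower and 6 higher in replicate 2. Differences were therefore also computed with the replicate number as a block, and the count or value so obtained is given where it changes the calls described. Ccnb1, Cdc20 and Plk1 have near-copies in the genome: 23.4%, 10.4% and 6.56% of their transcripts' 50-base words occur in transcripts of other genes, which can move reads between genes, and in the other 37 genes this share was 3.58% or less.

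The cells carried macrophage markers throughout, with a summed level of 5993 to 9486 CPM over 8 genes. The 8 osteoclast markers summed to 39.6 to 59.8 CPM at baseline in the loss of function libraries, to 9994 and 10330 CPM in WT after RANKL and to 3064.5 and 3072 CPM in Mir182ΔM/ΔM after RANKL. Other lineages were low: over 5 B cell markers the sum was at most 3.67 CPM, over 7 T and NK markers at most 16.8 CPM, over 7 stromal markers at most 37.0 CPM, over 7 erythroid markers at most 0.179 CPM with 5 of them at 0 in every library, and over 5 mast cell markers at most 0.240 CPM with 2 at 0. The granulocyte and progenitor markers (10 found of 11) summed to 61.4 to 83.0 CPM at baseline, 14.8 to 16.9 CPM in WT after RANKL and 5.19 to 5.31 CPM in Mir182ΔM/ΔM after RANKL, and to 70.2 to 71.2 CPM in Control and 124 to 133 CPM in Mir182mTg. The 5 megakaryocyte markers, some of which macrophages also express, summed to 186 to 243 CPM at baseline, 34.8 to 44.1 CPM after RANKL and 254 to 345 CPM in the gain of function libraries.

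All 40 genes were expressed in BMMs before any RANKL. Over the 12 libraries Mki67, the Ki-67 antigen that coats mitotic chromosomes, had the highest mean level before correction for length, and per kilobase of transcript Top2a came first at 125 CPM per kb, ahead of Ube2c (101), Mki67 (97.9), Ccna2 (86.6) and Incenp (81.2). The lowest levels per kilobase were those of Cenpk (5.29), Spc24 (11.4), Ttk (11.6) and Cenpf (11.8). The genes together took 0.418% ± 0.033 of all reads in WT at baseline (SD, n = 2), 0.567% ± 0.029 in WT after RANKL, 0.514% ± 0.033 in Mir182ΔM/ΔM at baseline and 0.742% ± 0.022 in Mir182ΔM/ΔM after RANKL, with 0.682% ± 0.037 in Control and 0.653% ± 0.026 in Mir182mTg.

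The mean of log2(CPM + 1) over the 40 genes put the 4 loss of function conditions in the order WT at baseline (6.19 ± 0.059), Mir182ΔM/ΔM at baseline (6.47 ± 0.030), WT after RANKL (6.62 ± 0.029) and Mir182ΔM/ΔM after RANKL (7.05 ± 0.014; SD, n = 2). The libraries of neighbouring conditions did not overlap. With TMM factors over the 12 libraries the means were 6.28, 6.54, 6.502 and 7.08, and the middle pair changed places, whereas the lowest and the highest condition were the same. Control (6.89 ± 0.030) and Mir182mTg (6.83 ± 0.022), from the other experiment, stood above both baseline groups of the loss of function experiment; these values are set side by side and were not tested. By mean CPM, 36 of the 40 genes were highest in Mir182ΔM/ΔM after RANKL among the 4 conditions, and 36 were lowest in WT at baseline. Both Mir182ΔM/ΔM libraries after RANKL were above the other 6 for 32 genes, a pattern that 14.3% of all tested genes showed.

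**Figure D1:**
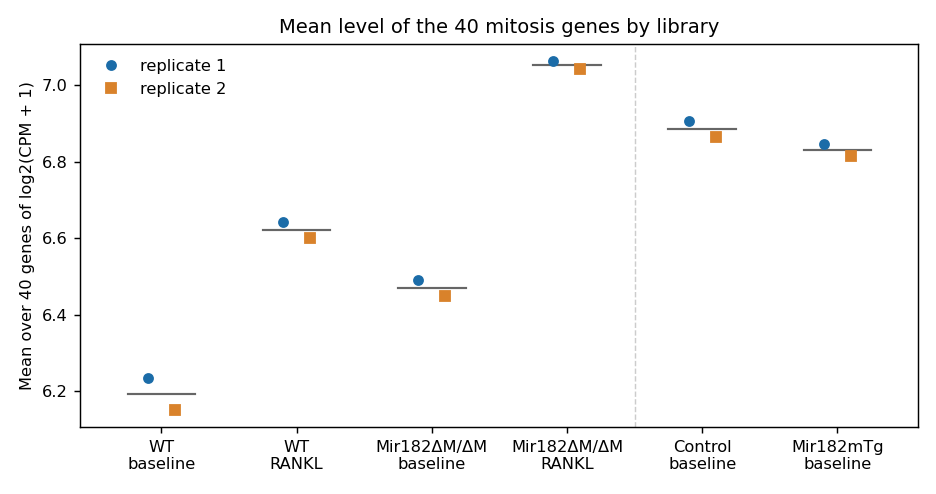
Mean of log2(CPM + 1) over the 40 genes (vertical axis) in each of the 12 libraries, by condition; circles are replicate 1, squares replicate 2, grey lines the mean of the pair, and the dashed line divides the loss and gain of function experiments. The Mir182ΔM/ΔM libraries after RANKL stand highest (mean 7.05) and the WT libraries at baseline lowest (mean 6.19). The axis does not start at 0.

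**Figure D2:**
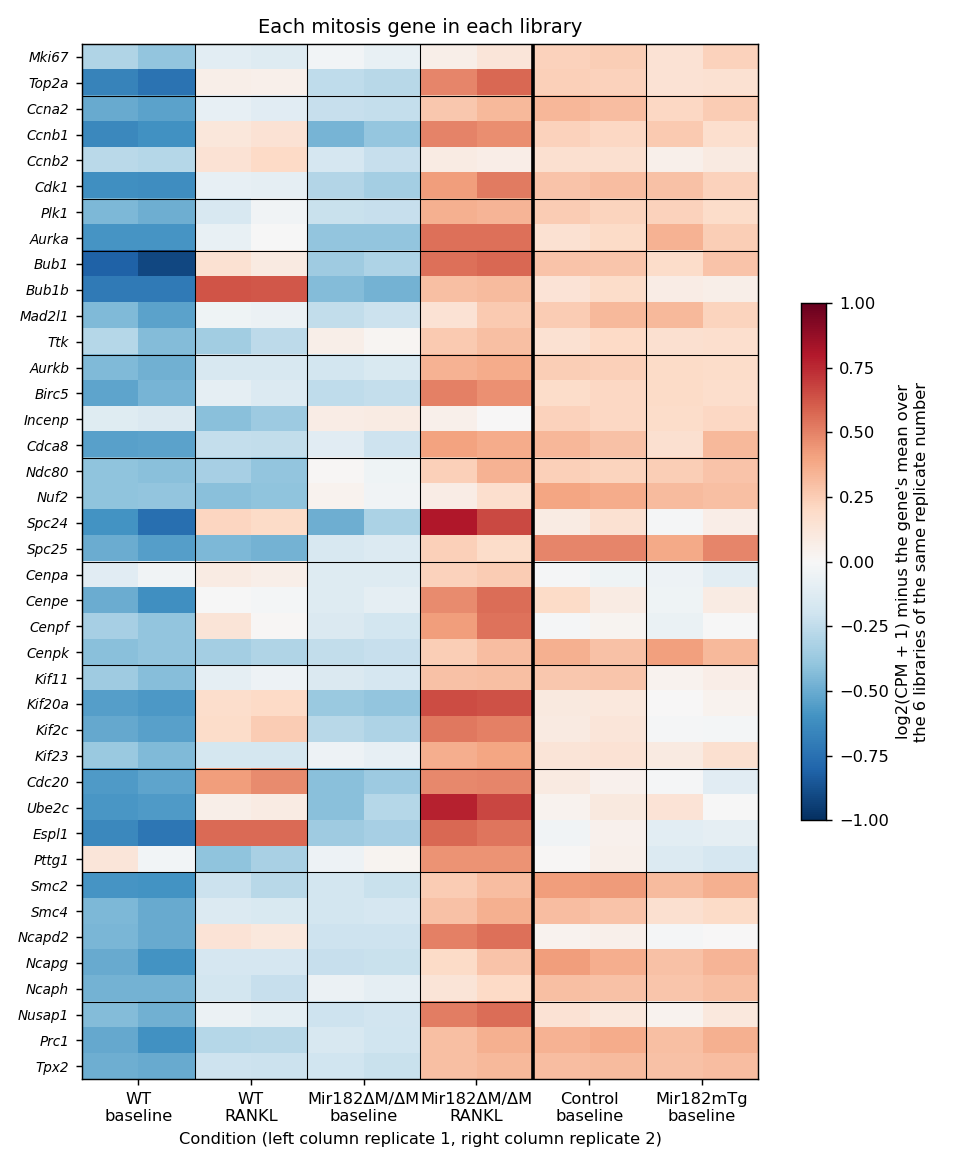
Each gene (rows, grouped by function) in each library (columns), as log2(CPM + 1) minus the gene's mean over the 6 libraries of the same replicate number; red is above and blue below that mean. Values run from -0.913 to 0.799, most rows pass from blue in WT at baseline to red in Mir182ΔM/ΔM after RANKL, and Bub1b and Pttg1 break the pattern in WT after RANKL.

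The first question was how mitosis genes differed between genotypes once the cells had been given RANKL. After RANKL, 33 of the 40 genes were higher in Mir182ΔM/ΔM than in WT and 1, Bub1b, was lower, in limma's test at an adjusted p under 0.05 over 11673 genes. Over all tested genes 14.3% were higher and 30.9% lower. The median log2 fold change of the 40 genes was 0.47, beside -0.14 for all genes. The difference lay within both replicate numbers for most: 37 of the 40 genes were higher in Mir182ΔM/ΔM in both, against 30.1% of all genes. More dividing cells and more of these mRNAs per dividing cell cannot be told apart in bulk RNA. The macrophage marker sum was 6753 and 6932 CPM in the Mir182ΔM/ΔM libraries and 5993 and 6080 CPM in WT after RANKL. The osteoclast marker sum was lower in the same Mir182ΔM/ΔM libraries, at 3064.5 and 3072 CPM against 9994 and 10330 CPM, as was the granulocyte and progenitor sum; their part in the difference was not tested.

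Top2a, topoisomerase IIα, which untangles sister DNA (chr11:98992943-99024189, minus strand, mm10), had 399 and 376 CPM in WT at baseline, 662 and 651 in WT after RANKL, 532 and 518 in Mir182ΔM/ΔM at baseline and 893 and 932 in Mir182ΔM/ΔM after RANKL. None of these 4 pairs overlapped, and the Mir182ΔM/ΔM pair was the higher at both times. The fold change after RANKL was 0.48 ± 0.06 on the log2 scale (SE; limma adjusted p = 0.00067). Mki67 itself (chr7:135689784-135716361, minus strand) had 1017 and 790.2 CPM in WT and 1135 and 938 CPM in Mir182ΔM/ΔM after RANKL, so the pairs overlapped, and its fold change of 0.20 ± 0.20 did not pass limma's test (adjusted p = 0.448); with the replicate number as a block it did (adjusted p = 8.2e-06).

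Among the genes that start mitosis, the cyclin A gene Ccna2, the cyclin B gene Ccnb1 and Cdk1, the kinase they activate, were higher by 0.39 ± 0.12, 0.36 ± 0.10 and 0.55 ± 0.16. Ccna2 had 239.99 and 205 CPM in WT and 306 and 278 CPM in Mir182ΔM/ΔM after RANKL, and Cdk1 had 126 and 153 CPM in WT and 179 and 233 CPM in Mir182ΔM/ΔM. Neither gene overlapped between genotypes, although the 2 libraries of a condition lay apart. The other cyclin B gene, Ccnb2, was at 113 and 117 CPM in WT and at 109 and 107 CPM in Mir182ΔM/ΔM. Its pairs did not overlap, yet the fold change of -0.10 ± 0.06 did not pass limma's test (adjusted p = 0.237). With the block Ccnb2 was lower (adjusted p = 0.0321), and with TMM factors the value was 0.06, so its direction depends on the scaling. Both kinase genes of mitotic entry and the spindle poles were higher, Plk1 by 0.45 ± 0.09 and Aurka by 0.59 ± 0.06. Plk1 had 61.4 and 54.6 CPM in WT at baseline, 75.2 and 75.4 in WT after RANKL, 71.8 and 65.7 in Mir182ΔM/ΔM at baseline and 108 and 98.0 in Mir182ΔM/ΔM after RANKL, and the last pair stood above the other 6 libraries.

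The kinetochore and its checkpoint held the exception. All 4 subunits of the NDC80 complex, which grips the microtubule end, were higher: Spc25 by 0.67 ± 0.07, Ndc80 by 0.66 ± 0.09, Nuf2 by 0.53 ± 0.12 and Spc24 by 0.53 ± 0.12. Spc25 had 32.0 and 32.1 CPM in WT and 52.2 and 51.0 CPM in Mir182ΔM/ΔM, Ndc80 had 49.2 and 43.5 against 73.8 and 73.6 CPM, and Nuf2 had 53.7 and 47.5 against 76.0 and 70.8 CPM. The Mir182ΔM/ΔM pair was the higher for each, and at baseline too, where Ndc80 was at 47.0 and 42.8 CPM in WT and 62.9 and 56.0 CPM in Mir182ΔM/ΔM. The checkpoint kinase genes Bub1 (116 and 104 CPM in WT, 153 and 146 CPM in Mir182ΔM/ΔM) and Ttk were higher by 0.44 ± 0.09 and 0.59 ± 0.12, and Mad2l1, the checkpoint protein that inhibits CDC20, had a value of 0.26 ± 0.10 (adjusted p = 0.0727; 4.1e-05 with the block). Bub1b, which encodes BUBR1, a subunit of the checkpoint complex that holds back the APC/C (chr2:118598211-118641591, plus strand), had 209.6 and 213 CPM in WT and 167 and 172 CPM in Mir182ΔM/ΔM after RANKL. It was lower by limma's test, with a log2 fold change of -0.32 ± 0.06 (adjusted p = 0.00326). With TMM factors Bub1b stood at -0.17 (adjusted p = 0.0484), and edgeR and DESeq2 on the recovered reads gave -0.17 with adjusted p of 0.0569 and 0.0889. In the blocked fits the adjusted p of Bub1b was 5.01e-08 with limma on CPM, 0.000237 with TMM factors and 6.14e-05 with edgeR.

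The 4 genes of the chromosomal passenger complex, which corrects faulty attachments and drives cytokinesis, were all higher: Cdca8 (borealin) by 0.63 ± 0.06, Birc5 (survivin) by 0.59 ± 0.06, the kinase gene Aurkb by 0.52 ± 0.12 and the scaffold gene Incenp by 0.42 ± 0.09. Birc5 had 101 and 96.9 CPM in WT and 152 and 147 CPM in Mir182ΔM/ΔM, and Incenp had 203 and 191 CPM in WT and 281 and 247 CPM in Mir182ΔM/ΔM. Incenp was the most abundant of the 4 and the only one of them whose WT libraries after RANKL lay below those at baseline. Of the centromere proteins, Cenpk was higher by 0.59 ± 0.09, Cenpe, a kinetochore motor, by 0.53 ± 0.13 and Cenpf by 0.41 ± 0.12. Cenpk, the least abundant of the 40 genes, had 8.53 and 8.02 CPM in WT at baseline, 9.06 and 8.601 in WT after RANKL, 9.69 and 9.07 in Mir182ΔM/ΔM at baseline and 14.1 and 13.6 in Mir182ΔM/ΔM after RANKL, so that 1 pair stood above the other 6 libraries. Cenpe had 158 and 135 CPM in WT and 220.2 and 202 CPM in Mir182ΔM/ΔM after RANKL, and Cenpf had 149.8 and 123 against 183 and 179 CPM. Neither overlapped between the genotypes. Cenpa, with its fixed gap between replicates, had 62.1 and 84.8 CPM in WT and 69.0 and 97.2 CPM in Mir182ΔM/ΔM; its value of 0.17 ± 0.26 did not pass the test (adjusted p = 0.627; 0.00109 with the block).

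The motors and the chromosome scaffold were higher as whole groups. The 4 kinesin genes were higher by 0.30 to 0.55, with Kif23, a motor of the central spindle, at 0.55 ± 0.11, Kif20a at 0.46 ± 0.07, Kif11, which pushes the spindle poles apart, at 0.37 ± 0.07, and the microtubule depolymerase gene Kif2c at 0.30 ± 0.06. Kif11 had 152 and 148 CPM in WT and 198 and 189 CPM in Mir182ΔM/ΔM, and Kif20a had 180.2 and 175 against 251 and 237 CPM, with no overlap. All 5 condensin genes were higher, from Ncaph at 0.37 ± 0.07 to Smc2 at 0.52 ± 0.12. The ATPase gene Smc4 had 254 and 224 CPM in WT and 343 and 319 CPM in Mir182ΔM/ΔM, and Ncapd2, a subunit gene of condensin I, had 233 and 231 against 301 and 315 CPM. Both were above the WT pair, as they were at baseline, where Smc4 had 204 and 176 against 245 and 222 CPM and Ncapd2 had 154 and 151 against 183 and 185 CPM. The 3 spindle microtubule genes were higher as well, Nusap1 by 0.62 ± 0.16, Prc1 by 0.61 ± 0.13 and Tpx2 by 0.52 ± 0.13. Tpx2, an activator of the Aurora A kinase on the spindle, had 173 and 149 CPM in WT and 247 and 216 CPM in Mir182ΔM/ΔM, and Prc1, which bundles microtubules in the midzone, had 134 and 117 against 202 and 182 CPM. No WT library reached the Mir182ΔM/ΔM pair of either gene.

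The genes of sister chromatid release went separate ways. Pttg1 encodes securin, which keeps separase inactive until anaphase (chr11:43420250-43426251, minus strand), and it had the highest fold change of the 40 genes: 15.1 and 16.6 CPM in WT against 27.9 and 29.1 CPM in Mir182ΔM/ΔM, or 0.81 ± 0.09 (adjusted p = 0.0004). Ube2c, the E2 enzyme of the APC/C, was higher by 0.65 ± 0.18. Espl1, which encodes separase (chr15:102296266-102324357, plus strand), had 125 and 145 CPM in WT and 126 and 142 CPM in Mir182ΔM/ΔM. These pairs overlapped and the value was -0.01 ± 0.12 (adjusted p = 0.948), or 0.14 with TMM factors. Cdc20, the activator of the APC/C in mitosis, had 81.5 and 108 CPM in WT and 84.9 and 109 CPM in Mir182ΔM/ΔM, a value of 0.03 ± 0.21 (adjusted p = 0.911). In all, 6 genes were called in neither direction: Mki67, Ccnb2, Mad2l1, Cenpa, Cdc20 and Espl1. With the block 36 genes were higher and 2 lower (Bub1b and Ccnb2), where 23.4% of all genes were higher and 49.8% lower. Neither Espl1 nor Cdc20 was called with the block and CPM, but with the block and TMM factors both were higher, Espl1 by 0.14 (adjusted p = 0.00331) and Cdc20 by 0.19 (adjusted p = 0.000539), as they were with edgeR and the block on recovered reads (adjusted p = 0.00136 and 0.000174).

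**Figure D3:**
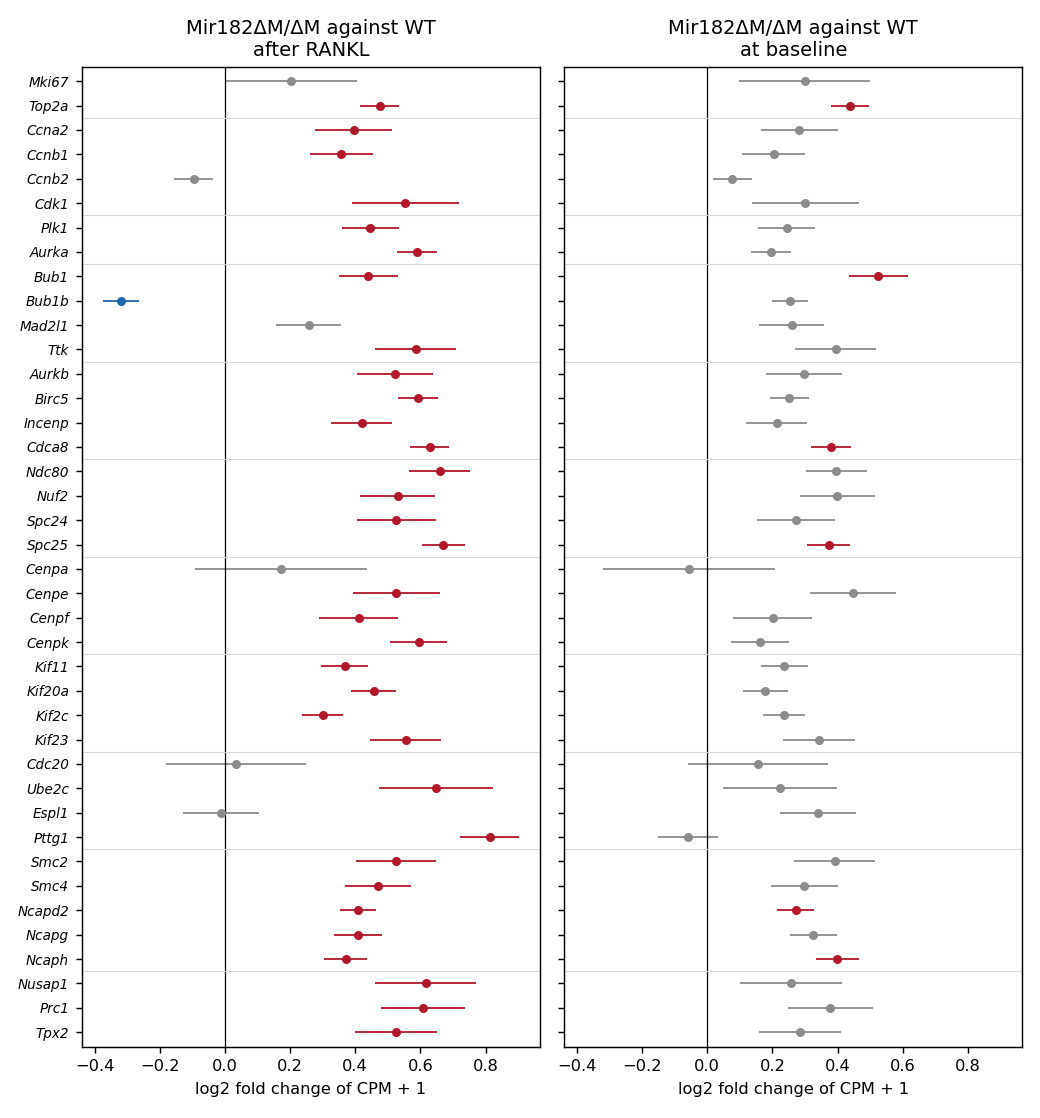
log2 fold change of CPM + 1 (horizontal axes) with its standard error (bars) for each gene, Mir182ΔM/ΔM against WT after RANKL (left) and at baseline (right), each from 2 libraries a group; red is higher and blue lower at an adjusted p under 0.05, grey did not pass. After RANKL 33 genes are red and Bub1b is blue, and at baseline 6 are red.

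At baseline the question was whether the genotypes already differed without RANKL. At an unadjusted p under 0.05 in limma's test 26 of the 40 genes differed, where 1898 of 11673 genes did. By adjusted p 6 of the 40 were higher in Mir182ΔM/ΔM and 0 lower, where 2.72% of all genes were higher and 1.11% lower. These were the checkpoint kinase gene Bub1 (0.53 ± 0.09), Top2a (0.44 ± 0.06), the condensin genes Ncaph (0.40 ± 0.07) and Ncapd2 (0.27 ± 0.06), Cdca8 (0.38 ± 0.06) and the NDC80 subunit gene Spc25 (0.37 ± 0.07). Bub1 had 59.1 and 51.4 CPM in WT and 80.9 and 78.7 CPM in Mir182ΔM/ΔM, and Ncaph had 64.2 and 62.2 CPM in WT and 86.0 and 81.5 CPM in Mir182ΔM/ΔM. Neither pair overlapped with the other genotype's. The median over the 40 genes was 0.28, beside 0.01 for all genes. Of the 40, 38 were above 0 and higher within both replicate numbers. Of 11673 genes 6160 were above 0, and 40.2% were higher within both. Pttg1 and Cenpa were the genes of the 40 below 0, at -0.06 ± 0.09 and -0.06 ± 0.26.

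The baseline count rested on how the replicates were treated. With the replicate number as a block 36 of the 40 genes were higher, where 18.6% of all genes were, and with only the 4 baseline libraries in the fit 0 were. Leaving out WT replicate 2 at baseline, or either Mir182ΔM/ΔM library at baseline, left 0 genes higher, and leaving out any other library left 1 to 4. The granulocyte and progenitor markers summed to 76.8 to 83.0 CPM in Mir182ΔM/ΔM and 61.4 to 70.9 CPM in WT at baseline, and their part in the difference was not tested.

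The response to RANKL was examined in each genotype. By the labels all libraries had 3 days of M-CSF, and the treated ones 5 days of RANKL against 0 at baseline. The paper describes these BMMs as cultured for 5 days either with RANKL or without it, which the labels do not state for baseline. Its methods also describe the medium that supplied M-CSF as present during the treatment. The part of time in culture in these responses was not tested. In Mir182ΔM/ΔM cells, a comparison that does not use the WT libraries after RANKL, 35 of the 40 genes rose and 0 fell. Over all genes 30.5% rose and 26.3% fell. At an unadjusted p under 0.05 in limma's test 35 of the 40 differed, where 7253 of 11673 genes did. The count of genes that rose was also 35 with TMM factors and with only the 4 Mir182ΔM/ΔM libraries in the fit. The median change was 0.53, beside 0.05 for all genes. The largest rises were those of Spc24 (1.13 ± 0.12), Ube2c (1.07 ± 0.18) and Kif20a (1.03 ± 0.07), a kinesin of the cleavage furrow. Kif20a went from 123 and 115 CPM to 251 and 237 CPM, Ube2c from 74.9 and 65.7 CPM to 172 and 128 CPM, and Spc24 from 9.51 and 12.2 CPM to 24.7 and 24.9 CPM, with no overlap between baseline and RANKL in any of the 3. The genes that did not pass the test were Mki67 (0.14 ± 0.20), Ttk (0.24 ± 0.12), Incenp (-0.05 ± 0.09), Nuf2 (0.12 ± 0.12) and Cenpa (0.37 ± 0.26). With the replicate number as a block 39 of the 40 rose, where 42.8% of all genes did, and Mki67, Ttk, Nuf2 and Cenpa were then among them, which left Incenp as the gene not called.

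In WT cells 26 of the 40 genes rose and 2 fell, where 40.6% of all genes rose and 22.0% fell. The median change was 0.38, beside 0.19 for all genes. With TMM factors 13 rose, where 28.8% of all genes did, and the same number fell as with CPM; the median was then 0.17. With the replicate number as a block and CPM 33 rose, where 52.9% of all genes did; the genes added were Mki67, Aurkb, Cenpa, Kif23, Nusap1, Prc1 and Tpx2. Bub1b rose most, from 82.6 and 84.2 CPM to 209.6 and 213 CPM (1.33 ± 0.06), followed by Espl1, from 53.1 and 58.5 CPM to 125 and 145 CPM (1.25 ± 0.12), and Cdc20, from 40.7 and 53.6 CPM to 81.5 and 108 CPM (0.99 ± 0.21). These 3 genes act at the gate of anaphase, BUBR1 as the brake, CDC20 as its target and separase as the enzyme released. The 5 condensin genes rose by 0.27 to 0.60, and the 4 cyclin and CDK1 genes by 0.42 to 0.75. Of the NDC80 complex 1 gene passed the test, Spc24 (0.88 ± 0.12); the values of Spc25, Ndc80 and Nuf2 were 0.06 ± 0.07, 0.04 ± 0.09 and -0.01 ± 0.12. The genes that fell were Pttg1, from 22.1 and 20.6 CPM to 15.1 and 16.6 CPM (-0.41 ± 0.09, adjusted p = 0.00607), and Incenp, from 249 and 223 CPM to 203 and 191 CPM (-0.26 ± 0.09, adjusted p = 0.0451).

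**Figure D4:**
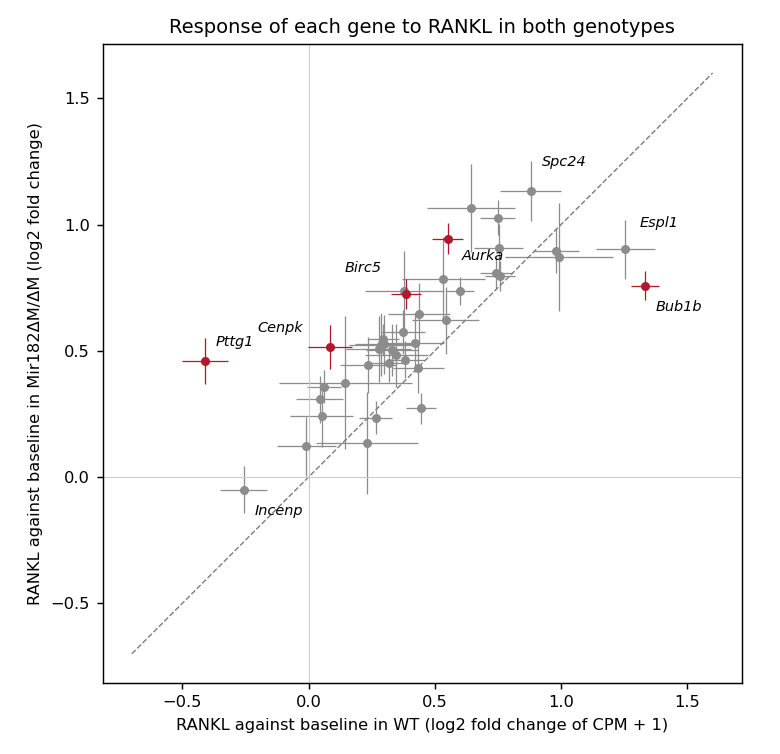
Response of each of the 40 genes to RANKL as a log2 fold change of CPM + 1, in WT (horizontal axis) and in Mir182ΔM/ΔM (vertical axis), with standard errors; red genes passed the test of the difference between the responses, and the dashed line marks equal responses. Pttg1 lies at -0.41 in WT and 0.46 in Mir182ΔM/ΔM, and Bub1b lies farthest to the right at 1.33.

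The genotype by RANKL interaction tested the difference between those responses. In limma's test the response was larger in Mir182ΔM/ΔM for 4 of the 40 genes and smaller for 1, where 7.46% of all genes had a larger and 17.2% a smaller response. Pttg1 had the largest difference (0.87 ± 0.13, adjusted p = 0.00294): it fell by 0.41 in WT and rose by 0.46 in Mir182ΔM/ΔM, where it went from 19.5 and 21.4 CPM to 27.9 and 29.1 CPM. The others were Cenpk, a subunit of the inner kinetochore (0.43 ± 0.12, adjusted p = 0.0439), Aurka (0.39 ± 0.09, adjusted p = 0.0156) and Birc5 (0.34 ± 0.09, adjusted p = 0.0273). Aurka had 48.4 and 47.3 CPM in WT at baseline, 69.8 and 71.2 CPM in WT after RANKL, 55.8 and 54.1 CPM in Mir182ΔM/ΔM at baseline and 108 and 105 CPM in Mir182ΔM/ΔM after RANKL. Bub1b went the other way (-0.57 ± 0.08, adjusted p = 0.0022), since it rose by 1.33 in WT and by 0.76 in Mir182ΔM/ΔM, from 100.2 and 99.2 CPM to 167 and 172 CPM. The calls of Pttg1 and Bub1b held under every alternative that was run, each library left out in turn included, whereas those of Birc5 and Cenpk were lost on leaving out any of the 8 libraries (adjusted p of 0.0552 to 0.139), that of Cenpk also with a pseudocount of 0.1 or no filter, and that of Aurka on leaving out any of 5.

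More of the 40 genes passed the interaction test under other treatments of scale and replicates. With TMM factors 8 had a larger response in Mir182ΔM/ΔM, where 10.6% of all genes did. With the replicate number as a block 24 had a larger and 3 a smaller response, where 16.1% and 42.8% of all genes did; the smaller ones were Bub1b, Espl1 (-0.35 ± 0.17, adjusted p = 0.174 without and 1.7e-05 with the block) and Ccnb2 (-0.17 ± 0.09, adjusted p = 0.194 without and 0.0107 with the block). The osteoclast and the granulocyte and progenitor sums also responded to RANKL by different amounts in the 2 genotypes, as given above, and their part in these differences was not tested.

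**Figure D5:**
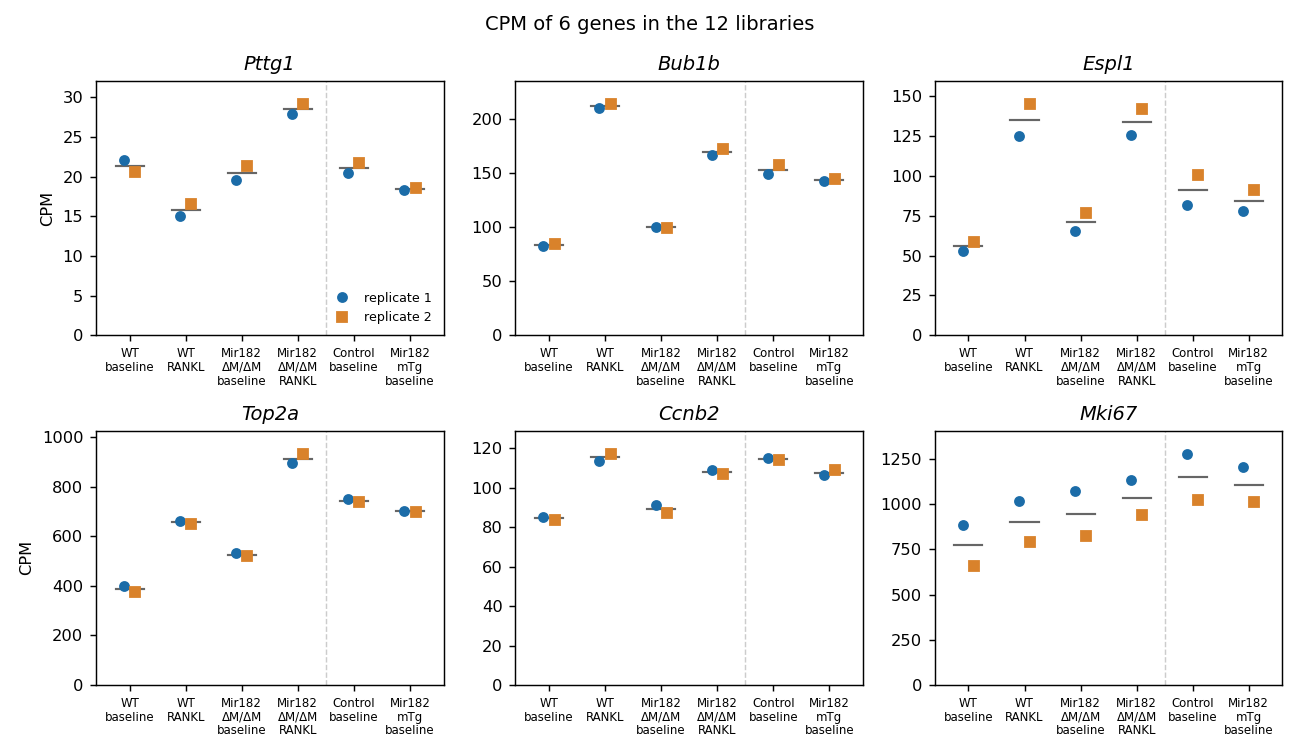
CPM (vertical axes, from 0) of 6 of the genes in the 12 libraries by condition; circles are replicate 1, squares replicate 2 and grey lines the mean of the pair. Pttg1 is lowest and Bub1b highest in WT after RANKL, Espl1 and Ccnb2 rise with RANKL in both genotypes, Top2a is higher after RANKL and higher in Mir182ΔM/ΔM, and Mki67 is lower in replicate 2 throughout.

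Few of all genes passed the test for extra miR-182, and 0 of the 40 did. In the gain of function BMMs edgeR's quasi-likelihood test called 0 of the 40 higher and 0 lower in Mir182mTg than in Control. At an unadjusted p under 0.05 it had 1 of the 40, where it had 863 of 12063 genes. Over all genes 0.0995% were called higher and 0.158% lower, and at such shares 0 of 40 says little about these genes. DESeq2 also called 0 of the 40. The fold changes lay between -0.23 and 0.12 on the log2 scale, with a median of -0.06 beside -0.0015 for all genes and a median SE of 0.095. Below 0 were 36 of the 40, where 6101 of 12063 genes were. Kif11 was at the low end, with 195 and 186 CPM in Control and 166 and 161 CPM in Mir182mTg (-0.23 ± 0.07, adjusted p = 0.487), and Aurka at the high end, with 81.8 and 81.7 CPM in Control and 94.0 and 84.9 CPM in Mir182mTg (0.12 ± 0.09). The pairs of Kif11 and those of Aurka did not overlap; in all, 10 of the 40 genes had pairs that did not overlap, where 32.2% of all genes did, and 9 of them were lower in Mir182mTg, where 14.1% of all genes were. Pttg1 was at 20.4 and 21.8 CPM in Control and 18.3 and 18.6 CPM in Mir182mTg (-0.20 ± 0.09, adjusted p = 0.822), Bub1b at 149 and 157 against 143 and 144 CPM, and Top2a at 748 and 738 against 701 and 697 CPM. In each of these 3 genes both Mir182mTg libraries lay below both Control libraries. With the replicate number as a block 8 of the 40 genes were lower, where 8.24% of all genes were, namely Kif11, Smc4, Top2a, Ccna2, Kif2c, Cdc20, Smc2 and Espl1. The granulocyte and progenitor markers summed to 124 to 133 CPM in Mir182mTg against 70.2 to 71.2 CPM in Control, and their part in these values was not tested.

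Other genes of chromosome segregation were read from 7 lists that hold none of the 40. Of their 120 genes, 61 were higher and 3 lower in Mir182ΔM/ΔM than in WT after RANKL (median 0.33), 13 were higher and 0 lower at baseline (53 at an unadjusted p under 0.05), 68 rose and 5 fell with RANKL in WT, and 72 rose and 3 fell in Mir182ΔM/ΔM. The shares of all genes in these comparisons, by adjusted and by unadjusted p, are those given above. With TMM factors 31 of the 120 rose and 19 fell with RANKL in WT, where 28.8% of all genes rose and 3558 of 11673 fell. The share of these 120 genes called higher in WT thus did not exceed that of all genes under this scaling. Their median was 0.147, beside -0.0050 for all genes. At baseline 86 were higher with the replicate block, 0 with only the 4 baseline libraries or on leaving out any of those 4, and 6 to 7 on leaving out a library after RANKL. After RANKL 39 to 61 were higher with a library left out, 39 without WT replicate 2 after RANKL. By edgeR 0 of the 120 were called between Mir182mTg and Control, with 2 at an unadjusted p under 0.05. At the small shares of all genes called there, 0 of 120 says little about these genes. With the block 1 was higher and 14 were lower, where 841 and 994 of 12063 genes were. After RANKL 14.3% of all genes were higher in Mir182ΔM/ΔM, and the lists stood at different shares. Of the spindle and other mitotic kinesins 16 of 21 genes were higher, of cytokinesis 8 of 11 and of mitotic entry and exit 13 of 19. Of the outer kinetochore 12 of 19 were higher and of the inner centromere 10 of 21. Of the cohesin and other condensin genes 0 of 14 were higher, and of the APC/C subunits and regulators 2 of 15. The APC/C count is near the share of all genes, and the lists are short. The fold changes that led were those of Cdc25b, a phosphatase that activates CDK1 (0.89 ± 0.09), Mastl, the Greatwall kinase (0.86 ± 0.14), and in cytokinesis Anln, an actin-binding scaffold of the furrow (0.84 ± 0.08), and Cep55 (0.80 ± 0.13).

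The checkpoint again held the largest fall. Mad1l1, which encodes MAD1, the partner that loads MAD2 at unattached kinetochores, had 37.5 and 33.0 CPM in WT at baseline, 98.1 and 96.2 CPM in WT after RANKL, 40.9 and 37.4 CPM in Mir182ΔM/ΔM at baseline and 48.8 and 45.0 CPM in Mir182ΔM/ΔM after RANKL. The WT libraries after RANKL stood above all others. Mad1l1 was lower in Mir182ΔM/ΔM after RANKL by limma's test (-1.04 ± 0.09, adjusted p = 0.00012), and its response to RANKL was smaller there (-1.18 ± 0.13, adjusted p = 0.00075). Like Bub1b it was not called between the genotypes at baseline (0.15 ± 0.09).

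The regulators of these genes were read from 3 further lists. Foxm1, a transcription factor of mitotic genes, had 119 and 114 CPM in WT and 155 and 142 CPM in Mir182ΔM/ΔM after RANKL (0.34 ± 0.08, adjusted p = 0.0148), and it was also higher at baseline (0.43 ± 0.08, adjusted p = 0.0384). Mybl2, which encodes B-MYB, rose with RANKL in both genotypes, from 10.8 and 11.9 CPM to 35.3 and 35.1 CPM in WT (1.55 ± 0.09) and from 15.5 and 17.3 CPM to 40.6 and 40.5 CPM in Mir182ΔM/ΔM (1.26 ± 0.09). Between genotypes Mybl2 passed the test at baseline (0.49 ± 0.09) and had a value of 0.20 ± 0.09 after RANKL (adjusted p = 0.108). Of the 22 cell cycle transcription factors and pocket proteins, 7 were higher and 1 lower in Mir182ΔM/ΔM after RANKL. Over all genes 14.3% were higher and 30.9% lower. Rbl1, a pocket protein of the DREAM complex, was at 0.64 ± 0.10 and Tfdp2 at -0.73 ± 0.10.

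Cyclin D1 had a larger difference than any of the 40 genes. Ccnd1, the cyclin that takes cells out of G1, had 361 and 337 CPM in WT at baseline, 374 and 359.98 CPM in WT after RANKL, 627 and 588 CPM in Mir182ΔM/ΔM at baseline and 1179 and 1095 CPM in Mir182ΔM/ΔM after RANKL. It was higher in Mir182ΔM/ΔM by 0.80 ± 0.07 at baseline and 1.63 ± 0.07 after RANKL, and rose with RANKL by 0.90 ± 0.07 in Mir182ΔM/ΔM, with a value of 0.07 ± 0.07 in WT; the responses differed (0.83 ± 0.10, adjusted p = 0.00119). Ccnd2 fell with RANKL in both genotypes, by 2.04 and 2.31. Of the 9 genes of the D cyclin list 6 were higher and 0 lower in Mir182ΔM/ΔM after RANKL, where 14.3% of all genes were higher and 30.9% lower. Myc rose with RANKL from 26.3 and 19.2 CPM to 212 and 164 CPM in WT (2.99 ± 0.23) and its value between genotypes after RANKL was 0.00 ± 0.23.

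The CDK inhibitors moved both ways. Cdkn1b, which encodes p27, had 41.2 and 36.9 CPM in WT and 22.4 and 18.5 CPM in Mir182ΔM/ΔM after RANKL and was lower there (-0.91 ± 0.12, adjusted p = 0.00097). Cdkn1a, which encodes p21, was higher, at 402 and 397 CPM against 221 and 235 CPM (0.81 ± 0.08), and so was Cdkn2a, at 7.39 and 7.44 CPM against 1.995 and 2.38 CPM (1.40 ± 0.10). Cdkn2b was lower (-1.15 ± 0.14), and Cdkn1c, at 1.34 to 3.51 CPM in the 12 libraries, was not called in any comparison. Of the 7 inhibitors 3 were higher and 2 lower after RANKL, where 14.3% of all genes were higher and 30.9% lower. At baseline 0 were called, where 2.72% of all genes were higher and 1.11% lower. In the gain of function libraries 0 were called, where 0.0995% of all genes were higher and 0.158% lower. At such shares 0 of 7 says little about these genes.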

How the data were processed

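The labels describe poly-A+ selection and the TruSeq kit for every library, yet give the molecule as polyA RNA for replicate 1 and total RNA for replicate 2. Per the labels, reads of replicate 1 were processed with TopHat and Cufflinks and those of replicate 2 with HISAT2, HTSeq and edgeR, on mm10. For the 8 loss of function libraries the authors deposited CPM per gene, of which 100% of values were whole multiples of 1 read, within 0.05 reads. For the 4 gain of function libraries the authors deposited the count of reads per gene, here scaled to CPM for levels. RPKM, deposited by the authors for replicate 1 and equal to CPM over a fixed gene length, served only for gene lengths. Samples were grouped by their titles.

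CPM was tested with limma (3.58.1, eBayes with a trend) on log2(CPM + 1), 1 being the pseudocount, over the genes that reached 1 CPM in 2 or more of these libraries, in 1 fit of 4 groups. Fold changes on this scale understate changes of low genes. Counts were tested with edgeR (4.0.16, TMM, filterByExpr, quasi-likelihood). P-values were adjusted by Benjamini-Hochberg over all genes of a comparison, with a threshold of 0.05. Both tests were checked on simulated counts without any shift between replicate numbers, so the check does not cover the shift seen in these libraries. Of the gene names, 27 could not be joined between files and were left out of tests.

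The log2 ratio of replicate 2 to replicate 1, over genes, correlated between conditions at Pearson's r of 0.690 to 0.754 in the loss of function and 0.745 in the gain of function libraries. Across the 2 experiments it correlated too, at 0.746 between WT and Control at baseline. Libraries of the same replicate number thus share a shift over both experiments, which does not show that they came from the same cultures or mice. The block rests on these values and on the tools in the labels. The replicate number, the labelled RNA type and the tools cannot be told apart. The 40 genes and all other lists were chosen with earlier results of these data known. Genes named are the 2 with the highest mean CPM of each group, the 3 called with the largest change in each direction, members called against their group, up to 2 called genes of other lists and 7 regulators; members shown beyond these were added to give every group in full. Coordinates come from GENCODE vM21 and RefSeq (GRCm38.p6), the build of the files. Alternatives tried were other scalings, filters, pseudocounts, DESeq2 (1.42.0), the replicate block and leaving out each library.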

Additional observations from a re-analysis of the deposited data

Results flagged for a closer look

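By the interaction term of limma's fit over all genes, the response to RANKL was larger in Mir182ΔM/ΔM than in WT for 4 of the 40 genes and smaller for 1. Over all genes 7.46% had a larger and 17.2% a smaller response. The count of larger responses is near the share of all genes, and that of smaller ones is below it. On the log2 scale, the response in Mir182ΔM/ΔM minus that in WT was 0.87 for Pttg1, 0.43 for Cenpk, 0.39 for Aurka, 0.34 for Birc5 and -0.57 for Bub1b. The calls of Cenpk and Birc5 were lost on leaving out any of the 8 libraries and that of Aurka on leaving out any of 5. All 5 rest on the WT libraries after RANKL, in which Lyz2 stood at 4117 and 4288 CPM against 39.8 and 44.0 CPM in WT at baseline.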

How the results depend on the processing

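For Mir182ΔM/ΔM against WT after RANKL, 33 genes higher became 20 to 34 when each library was left out in turn, 20 without Mir182ΔM/ΔM replicate 1 after RANKL, and the 1 lower gene was kept in number each time; with the replicate block 2 were lower, and with edgeR or DESeq2 on recovered reads 0. At baseline 6 higher became 36 with the replicate block, with or without TMM factors and also in edgeR on recovered reads, 0 with only the 4 libraries of the comparison, and 0 to 4 with a library left out. For RANKL in WT, 26 higher became 13 with TMM factors, 13 with edgeR and 14 with DESeq2 on recovered reads, and 19 to 28 with a library left out; 2 lower became 1 without a filter or with only the 4 libraries, 6 with the replicate block together with TMM factors or edgeR, and 1 to 2 with a library left out. For RANKL in Mir182ΔM/ΔM, 35 higher became 27 to 35 with a library left out, and 0 lower became 1 with the replicate block together with TMM factors or edgeR. For the interaction, 4 larger became 24 with the replicate block, 8 with TMM factors, edgeR or DESeq2, 7 with quantile normalization, 34 with TMM factors and the block, 33 with edgeR and the block, and 1 to 2 with a library left out; 1 smaller became 3 with the block and 2 with the block together with TMM factors or edgeR. For Mir182mTg against Control, 0 lower became 8 with the replicate block and 11 with limma and the block, which also called 1 higher; leaving out a library gave 0 each time. Over all genes, the larger responses of the interaction went from 871 of 11673 to 1885 with the block, 1237 with TMM factors and 1208 with quantile normalization. With TMM factors and the block they were 3164. Of 12561 genes edgeR called 1127 larger, and 3109 with the block. DESeq2 called 1154 of 12540. The smaller responses went from 2004 to 4993 with the block, and to 2887 with TMM factors and the block. Where not stated otherwise the cause was not tested.

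Among single values after RANKL, Ccnb2 (-0.10) turned to 0.06 with TMM factors, edgeR and DESeq2, with and without the block (0.0574, 0.0570, 0.0566 and 0.0573). Espl1 (-0.01) turned to 0.142 with TMM factors, 0.140 with edgeR and DESeq2, 0.142 with edgeR and the block, 0.0197 with quantile normalization, and lay between -0.118 and 0.0962 with a library left out. With a library left out Cenpa lay between -0.0721 and 0.416 and Cdc20 between -0.167 and 0.237; both were below 0 without WT replicate 1 or Mir182ΔM/ΔM replicate 2 after RANKL. The mean log2 levels of the 40 genes were, with TMM factors, 6.28 in WT at baseline, 6.502 in WT after RANKL, 6.54 and 7.08 in Mir182ΔM/ΔM, 6.86 in Control and 6.79 in Mir182mTg; the medians over the genes were 6.05, 6.69, 6.36, 7.08, 6.80 and 6.79; with a pseudocount of 0.1 Mir182ΔM/ΔM after RANKL was at 7.04. Recovered reads were whole for 100% of values, and edgeR on them called 2481 of 12561 genes higher and 2448 lower in Mir182ΔM/ΔM after RANKL, against 1666 and 3609 of 11673 with limma. The 2 WT libraries after RANKL could not both be left out of comparisons with that condition.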
